A study of Bos taurus with 18 samples.

Results

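Solute carriers are membrane proteins that move amino acids, sugars, lactate, metals, nucleosides, vitamins and metabolites across the cell surface and across the membranes of mitochondria, Golgi and lysosomes. The genes described here are all those whose single symbol in the array's annotation begins with SLC and a family number, and each is read from 1 probe set, the brightest on average across the 18 arrays. There are 179 such genes, with 252 probe sets, among the 9155 genes that have a probe set of 1 symbol and the 24016 probe sets tested. They belong to 42 families, sorted here into 12 classes by what the family carries. SLC4A1AP and SLC7A6OS pass the rule by their symbols but are named for a neighbour or partner of a carrier and are not carriers themselves.

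The study took the dominant preovulatory follicle of 6 cows and put 3 cell populations of each follicle on separate expression arrays. Membrane-associated granulosa are the cells attached to the follicle wall, antral granulosa are the cells aspirated with the fluid, and theca is the vascular layer outside them. Cows D, F and G gave their follicle before the surge of luteinizing hormone (LH), and cows A, B and C gave theirs 22 h after gonadotropin-releasing hormone (GnRH), the agent used to induce the surge. Each of the 6 groups therefore holds 3 cows, the stages compare different cows, and the populations of a stage come from the same cows; all groups are written below as before or after LH.

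The granulosa of a growing follicle has no blood vessels of its own and relies on carriers for glucose, amino acids and the lactate it exports, while the theca is vascularised. After the surge granulosa cells stop making oestrogen, begin to luteinize and lose their tight layer, and the capillaries of the theca approach them. In most cell types a carrier family is shared out over membranes: SLC25 proteins mainly serve the inner mitochondrial membrane, SLC35 proteins the Golgi, and the SLC30 and SLC39 families move zinc in opposite directions.

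Values are log2 signals, so a difference of 1 is a 2-fold change, and n = 3 cows per group throughout. A difference is given ± its standard error, and it is called when the limma adjusted p over all 24016 probe sets is under 0.05. The arrays carry no detection calls, and a level under 4.62 is called dim here, a limit set by the mean signals of the 8006 faintest probe sets. Of the 179 genes 102 were above this limit on every array, 43 were below it on every array and 34 lay between. The genes dim on all arrays included 9 of 15 amine and neurotransmitter carriers, 7 of 18 sugar carriers (among them SLC2A3, SLC2A2 and SLC5A1) and 5 of 10 organic ion carriers, but 1 of 17 Golgi carriers and 2 of 21 metal carriers. At the other end, 21 genes had a group mean of 10 or more.

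The arrays matched their labels in part. The mean of 13 granulosa markers was 11.10 to 11.23 in membrane granulosa before LH and 8.46 to 9.61 in theca before LH. After LH it was 8.48 to 9.46 in membrane granulosa, within the range of theca before LH, and 7.84 to 7.85 in theca. The aromatase gene CYP19A1, made by granulosa, was nonetheless at 10.85, 11.82 and 8.21 in theca before LH. Before LH theca markers, a mean of 8 genes, were at 10.37 to 10.96 in theca and 8.20 to 9.89 in membrane granulosa. After LH they were at 8.98 to 9.26 in theca and at most 8.80 in membrane granulosa. Of the 8 genes, theca had 5 called higher and 2 lower than membrane granulosa before LH, and 1 higher and 0 lower after it. Fibroblast markers, a mean of 10 genes, were at 10.50 to 11.67 over the theca arrays, at 7.32 to 8.67 in membrane granulosa before LH and at 8.67 to 10.27 after it. In antral granulosa they were at 5.22 to 5.49 before LH and 6.39 to 8.0 after it. Endothelial markers were at 7.06 to 7.59 over the theca arrays and at 4.34 to 5.50 over the granulosa arrays, and red cell markers were at 3.84 to 4.35 everywhere. The highest fibroblast value in membrane granulosa after LH was that of cow C, and there the theca and luteal gene STAR was at 12.12 against 9.23 and 8.38 in cows A and B. In bulk RNA such as this, a change in the number of cells of a type and a change in RNA per cell cannot be told apart, and the part of these other cells in any difference below was not tested.

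LH was followed by changes in many solute carrier genes in granulosa and in fewer in theca. In membrane granulosa 18 rose and 28 fell, which is 25.7% of the 179, where 21.0% of all probe sets and 26.1% of all genes were called (13.1% higher and 12.9% lower). In antral granulosa 23 rose and 24 fell, or 26.3% against 22.4% of probe sets and 28.7% of genes (12.6% higher and 16.1% lower). In theca 6 rose and 8 fell, or 7.82% against 3.92% and 5.19% (2.34% higher and 2.85% lower). These shares lie near those of all genes, and the median difference of the family was close to 0 in each population (-0.05, -0.03 and 0.03), as it was over all genes (-0.03, -0.03 and -0.01). The results below are those of single carriers and classes. Every count of a class or gene list is to be read beside these shares of all genes, and none was tested as a set.

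The granulosa populations shared many of the changed carriers, and theca shared few of them. Of 62 genes called in at least 1 population, 36 were called in both granulosa populations, each time in the same direction. The like shares over all genes are not given here. SLC5A11, SLC25A12, SLC25A17, SLC27A2, SLC35G1 and SLC35G2 were called in all 3 populations with the same sign. SLC7A5 was the single gene called in opposite directions, up in theca and down in antral granulosa. SLC1A3, SLC3A2, SLC25A1, SLC25A34 and SLC39A4 were called in theca alone, and 117 genes were called nowhere. The theca count of falls was the least stable of these, with 4 in place of 8 without cow A or without cow D and 5 without cow G.

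**Figure D1:**
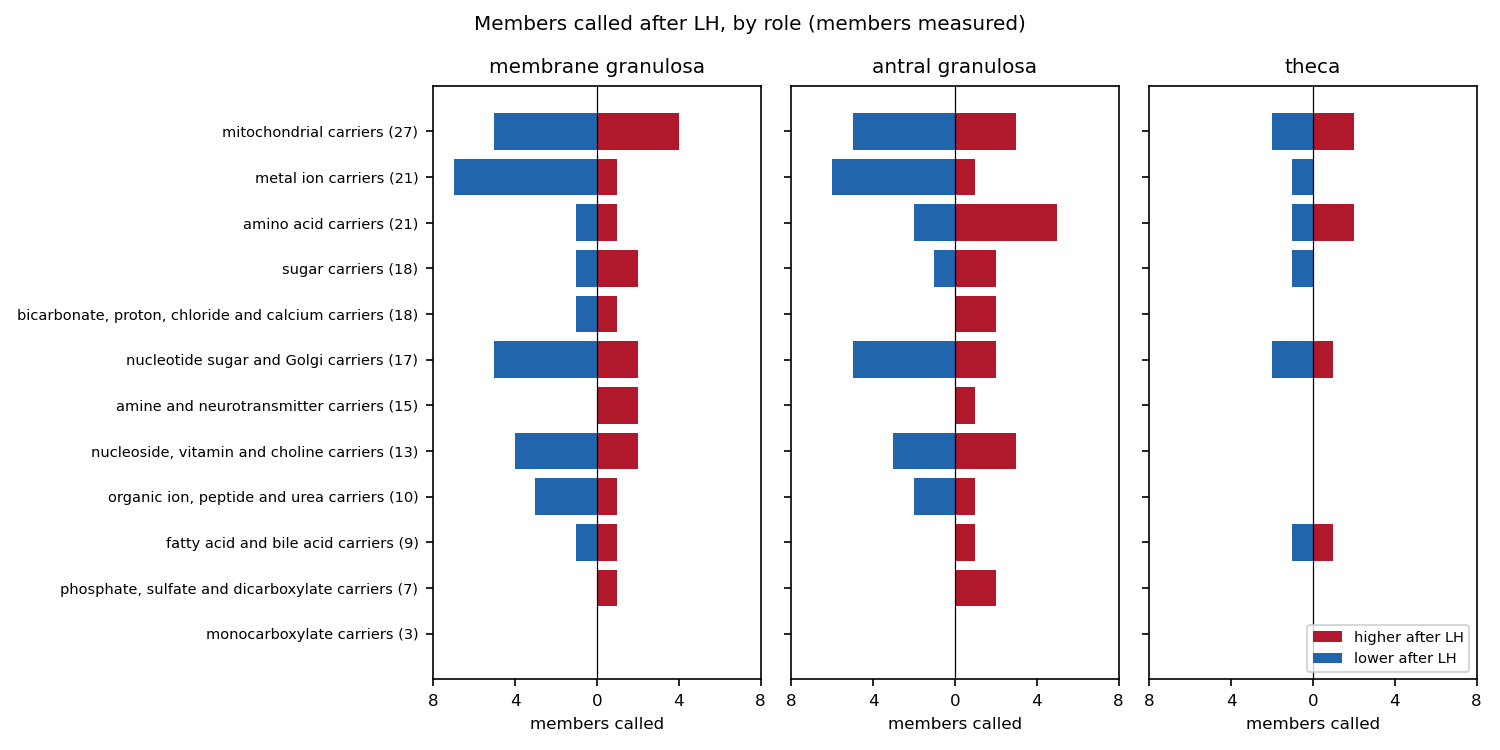
Horizontal bars give the number of solute carrier genes called higher (right) or lower (left) after LH, by class, in membrane granulosa, antral granulosa and theca; the number in brackets is the genes measured in the class. The longest bars on the lower side of both granulosa panels are those of metal ion carriers (7 and 6 of 21 genes). Bars are counts and not shares of a class, and Golgi carriers had 5 of 17 genes lower in each. The theca panel has at most 2 genes in any bar.

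**Figure D2:**
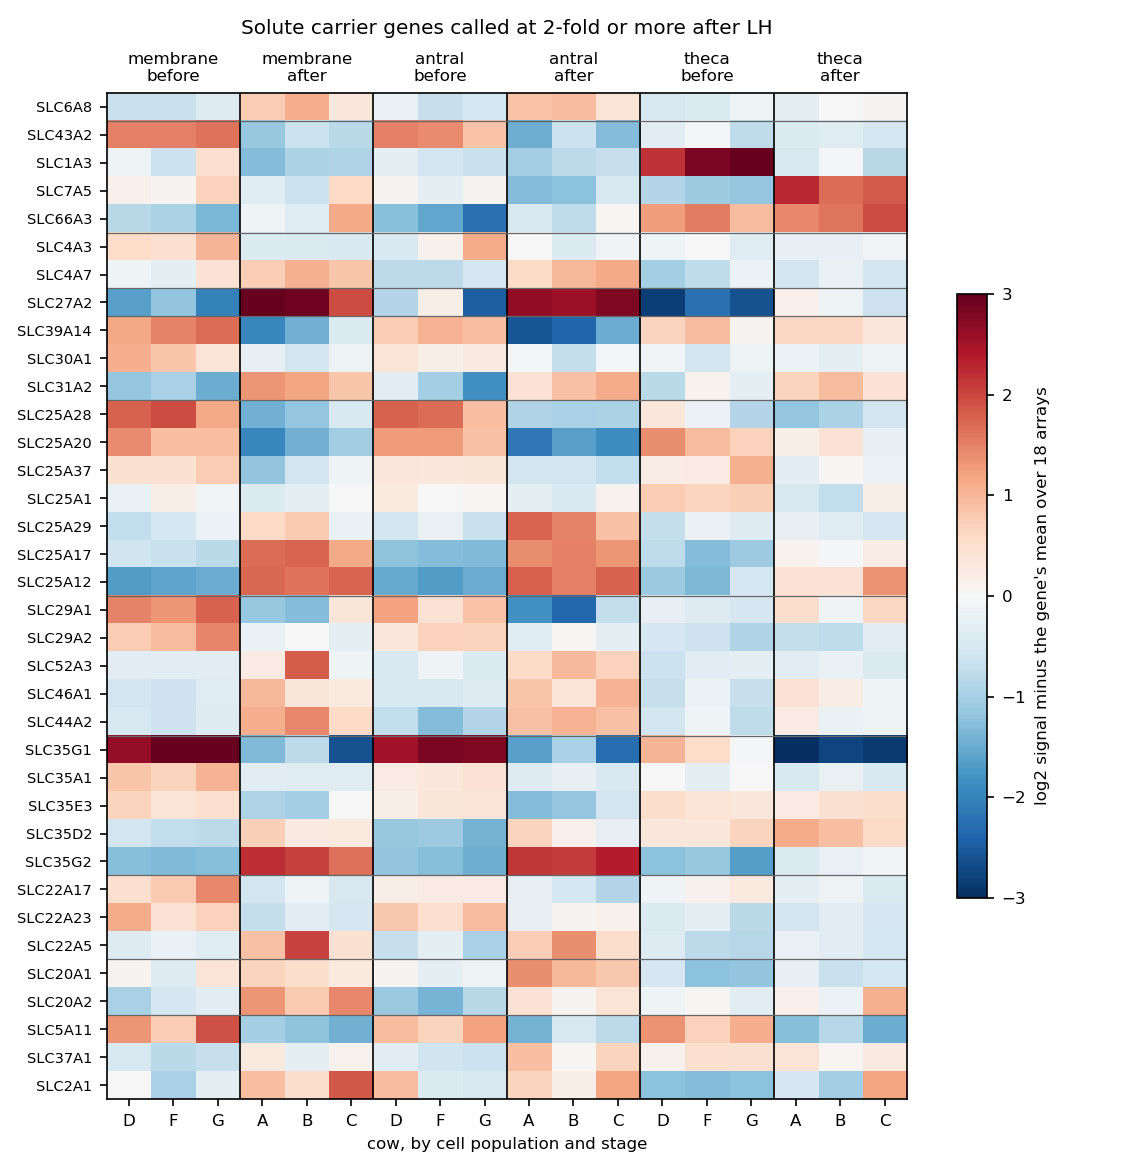
Each row is 1 of the 36 genes called with a difference of 1 or more after LH in any population, each column an array, and the colour the log2 signal minus the gene's mean over the 18 arrays, capped at 3 either way. Rows of SLC35G1, SLC25A20 and SLC39A14 turn from high to low in granulosa, those of SLC27A2, SLC25A12 and SLC35G2 from low to high, and SLC7A5 and SLC1A3 change most in theca.

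Among amino acid carriers, SLC7A5 rose in theca and fell in antral granulosa, SLC1A3 fell in theca and SLC43A2 fell in granulosa. SLC7A5 is the light chain of the exchanger that brings leucine and other large neutral amino acids into the cell. In theca it read 5.93, 5.72 and 5.64 before LH and 9.04, 8.47 and 8.62 after it. In membrane granulosa it read 6.95, 6.87 and 7.48 before LH and 6.42, 6.15 and 7.38 after it, and in antral granulosa 6.87, 6.51 and 6.87 before and 5.50, 5.56 and 6.32 after it. The groups of theca and of antral granulosa did not overlap, whereas cow C kept membrane granulosa within the range before LH. The difference was 2.95 ± 0.29 in theca (adjusted p = 3.07e-05), -0.96 ± 0.29 in antral granulosa (adjusted p = 0.0263) and -0.45 ± 0.29 in membrane granulosa (adjusted p = 0.321). The limma test of theca against membrane granulosa gave a difference in LH effect of 3.40 ± 0.33 (adjusted p = 0.000114), so theca moved from below membrane granulosa before LH (-1.34 ± 0.23) to above it after LH (2.06 ± 0.23). The antral call was lost when cow A, B, D, F or G was left out (adjusted p 0.0518 to 0.126), and without cow C the membrane difference was -0.82 (adjusted p = 0.0141).

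SLC3A2, the heavy chain that carries SLC7A5 and several other light chains to the surface, read 6.68, 6.42 and 6.69 in theca before LH and 7.36, 6.96 and 7.68 after it. The groups did not overlap, and the rise of 0.73 ± 0.19 (limma adjusted p = 0.0397) was not called without cow A, D, F or G (0.124 to 0.184). Its differences of 0.43 and 0.44 in the granulosa populations were not called, and neither was the difference between theca and membrane granulosa (0.30 ± 0.18, adjusted p = 0.381).

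SLC1A3, which takes up glutamate and aspartate, went the other way in theca. There it read 6.84, 7.48 and 8.51 before LH and 4.18, 4.63 and 3.83 after it, so that 1 of 3 arrays after LH was above the dim limit. In granulosa it was dim or nearly so throughout, at 3.36 to 5.16. The fall in theca was -3.40 ± 0.35 (adjusted p = 4.86e-05). It was called different from the effect in membrane granulosa (adjusted p = 0.00388), whose size is not read because that group was dim on all arrays after LH. Before LH theca lay 3.04 ± 0.31 above membrane granulosa (adjusted p = 1.68e-05), and after LH 0.61 ± 0.31 above it (adjusted p = 0.181).

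SLC43A2, a facilitative carrier of branched-chain amino acids and phenylalanine, changed in granulosa. Membrane granulosa read 9.71, 9.71 and 9.83 before LH and 7.06, 7.55 and 7.38 after it. Antral granulosa read 9.71, 9.61 and 9.06 before and 6.73, 7.55 and 6.90 after it, while theca stayed between 7.43 and 8.14 on all 6 arrays. Neither granulosa population overlapped between stages, and theca did. The falls were -2.42 ± 0.23 (adjusted p = 1.72e-06) and -2.40 ± 0.23 (adjusted p = 1.29e-06) against -0.04 ± 0.23 in theca, with a difference in LH effect of 2.38 ± 0.26 (adjusted p = 0.000207).

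Other amino acid carriers moved less. SLC66A3, a member of the PQ-loop family with no settled substrate, rose by 1.27 ± 0.35 and 1.30 ± 0.35 in membrane and antral granulosa (limma adjusted p = 0.0154 and 0.0129), though not without cow G (0.0665 and 0.0831). It was higher in theca than in membrane granulosa at both stages, by 2.31 ± 0.19 and 1.45 ± 0.19. SLC38A2, the widely expressed sodium-coupled carrier of glutamine and alanine, rose by 0.57 ± 0.13 in antral granulosa (adjusted p = 0.00394), and SLC1A4, a carrier of alanine, serine and cysteine, by 0.80 ± 0.27 there (adjusted p = 0.0438). SLC1A5, the glutamine exchanger, was not called for LH in any population but was higher in theca than in membrane granulosa, by 0.91 ± 0.29 before and 1.60 ± 0.29 after LH (adjusted p = 0.0281 and 0.0017); the first was not called without cow F or G (0.134 and 0.0936). SLC38A3 lay between 4.89 and 5.41 on all 18 arrays and was called in no comparison.

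Over the class, 1 of 21 amino acid carriers rose and 1 fell in membrane granulosa, 5 rose and 2 fell in antral granulosa, and 2 rose and 1 fell in theca. Of all genes 26.1%, 28.7% and 5.19% were called in these populations. Enzymes that use these substrates, taken from a list of 20 genes of which 18 are measured, moved in part alongside. GLUL, which makes glutamine from glutamate, fell in theca by 1.19 on the log2 scale (from a mean of 12.47 to 11.28, adjusted p = 0.0348). GCLC, the catalytic subunit of glutathione synthesis, was at a mean of 10.54 in membrane granulosa before LH and 5.0 after it, a difference of -5.54 ± 0.34 (adjusted p = 2.99e-08), and at 10.49 and 4.60 in antral granulosa, the latter under the dim limit, while its modifier subunit GCLM rose by 1.73 ± 0.29 and 1.51 ± 0.29. GPT, an alanine transaminase, had a difference of -4.73 ± 0.29 and -4.27 ± 0.29 in granulosa and -2.20 ± 0.29 in theca. Of the 18 genes 2 rose and 3 fell in membrane granulosa, 3 rose and 5 fell in antral granulosa, and 4 fell in theca.

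**Figure D3:**
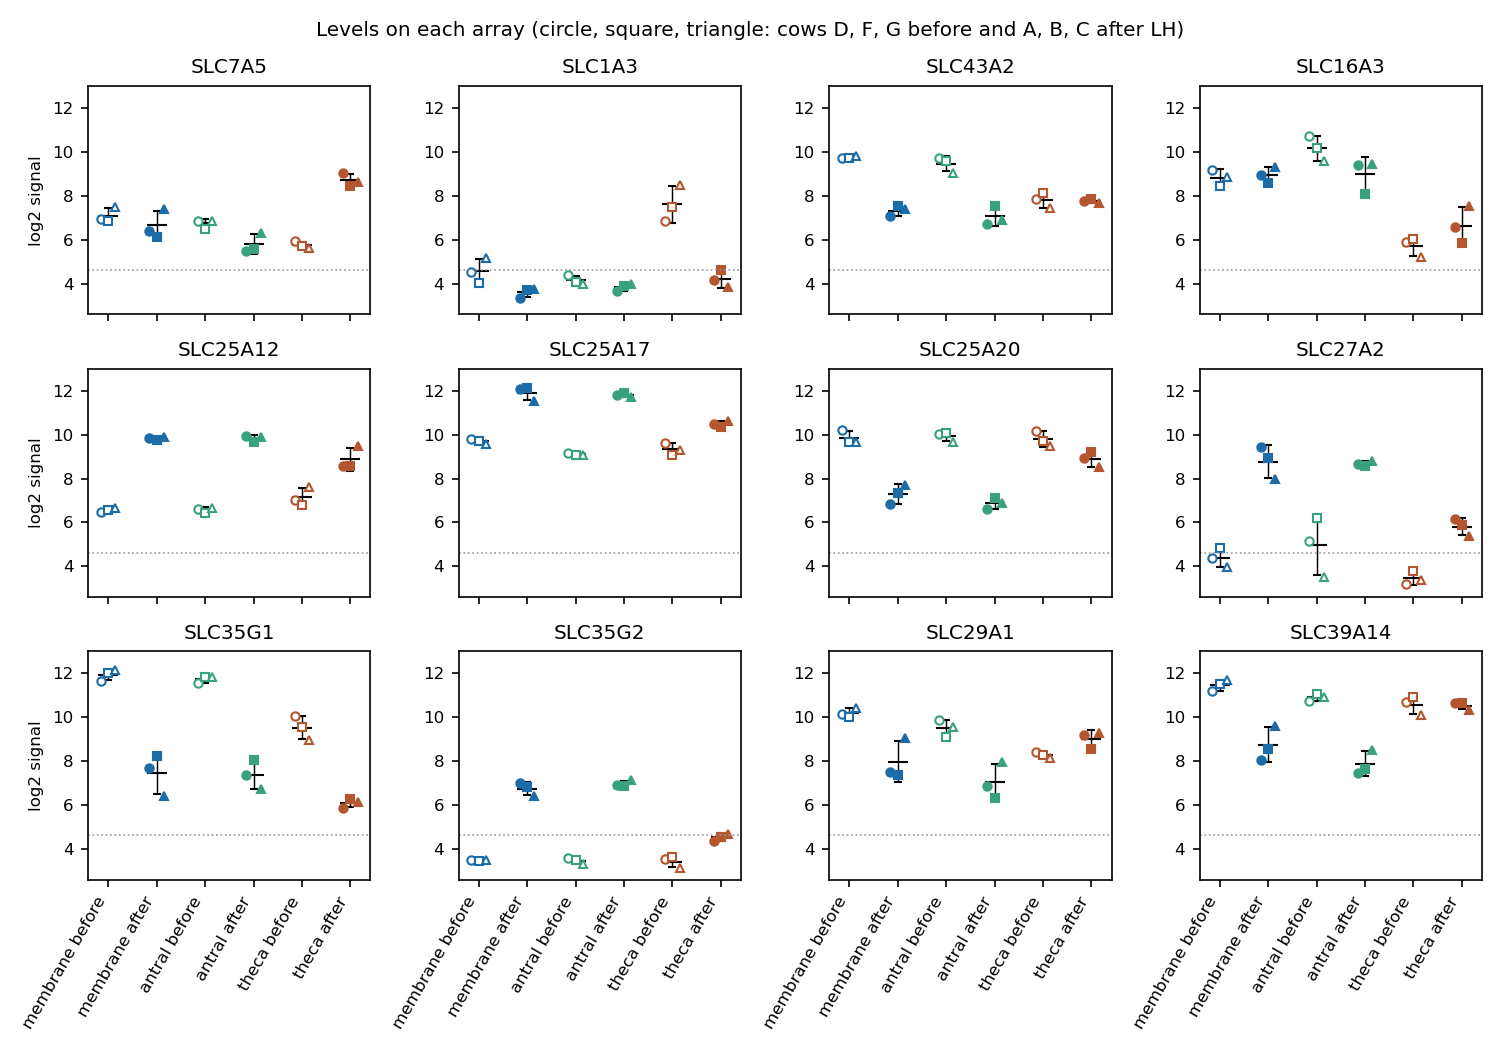
Log2 signal of 12 solute carrier genes on each of the 18 arrays, by population and stage; open symbols are before and filled symbols after LH, horizontal ticks with bars the mean ± SD of 3 cows, and the dotted line the dim limit of 4.62. SLC7A5 separates in theca, SLC43A2 and SLC29A1 fall in granulosa with theca level or higher, and SLC35G1 falls in all 3 populations.

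Sugar carriers changed in few members. SLC5A11, a sodium-coupled carrier of myo-inositol, fell everywhere. Membrane granulosa read 7.52, 6.97 and 8.11 before LH and 5.21, 5.0 and 4.76 after it, and theca read 7.54, 6.90 and 7.30 before and 4.92, 5.36 and 4.72 after it. No group overlapped its counterpart, and antral granulosa (7.14, 6.86 and 7.40, then 4.79, 5.71 and 5.42) behaved alike. The differences were -2.55 ± 0.29, -2.25 ± 0.29 and -1.83 ± 0.29 in membrane granulosa, theca and antral granulosa (limma adjusted p = 1.14e-05, 0.00031 and 0.000222). Theca and membrane granulosa did not differ detectably in this effect (0.30 ± 0.31, adjusted p = 0.642).

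SLC2A1, the basal glucose transporter, read 8.58, 7.60 and 8.27 in membrane granulosa before LH and 9.46, 9.10 and 10.43 after it. The groups did not overlap and the rise of 1.51 ± 0.51 was called narrowly (adjusted p = 0.0475), but not without cow A, C, D, F or G (0.0504 to 0.19). The differences of 0.67 in antral granulosa and 1.15 in theca were not called. Theca lay below membrane granulosa at both stages, by -0.84 ± 0.28 and -1.21 ± 0.28 (adjusted p = 0.0323 and 0.00677). SLC37A1, an exchanger of glucose 6-phosphate and phosphate in the endoplasmic reticulum, rose by 1.06 ± 0.21 in antral granulosa (adjusted p = 0.00141) and by 0.69 ± 0.21 in membrane granulosa (adjusted p = 0.0259). The membrane rise was not called without cow A, C, F or G (0.0801 to 0.114). In theca it was -0.11, and the difference from membrane granulosa was called (-0.80 ± 0.21, adjusted p = 0.0325).

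None of the 3 monocarboxylate carriers measured was called for LH in any population under the limma test, and SLC16A3 differed between theca and granulosa. SLC16A3, the monocarboxylate carrier of cells that export lactate, read 9.18, 8.44 and 8.86 in membrane granulosa before LH and 8.95, 8.56 and 9.29 after it. In theca it read 5.88, 6.04 and 5.20 before and 6.57, 5.85 and 7.53 after it, so that every theca array lay below every granulosa array. Theca minus membrane granulosa was -3.13 ± 0.25 before LH (limma adjusted p = 4.74e-06) and -2.29 ± 0.25 after it (adjusted p = 0.000103). Antral granulosa before LH, at 10.72, 10.16 and 9.59, was above membrane granulosa in all 3 cows, by 1.33 ± 0.25 (adjusted p = 0.024), though not called without cow D or F (0.174 and 0.0816). After LH, with antral granulosa at 9.41, 8.09 and 9.46, the 2 granulosa populations differed by 0.05 ± 0.25. The antral difference between stages was -1.17 ± 0.44 and was not called (adjusted p = 0.0684), though it was without cow C (-1.41, adjusted p = 0.0266). A second, fainter probe set of SLC16A3, with a mean of 5.10, gave theca minus membrane granulosa of -0.36 before LH (adjusted p = 0.185) and -0.57 after it (adjusted p = 0.0461), so the size, and the call before LH, rest on the brighter probe set. The fainter one gave antral minus membrane granulosa of 0.07 before LH (adjusted p = 0.908). That call thus also rests on the brighter probe set.

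SLC16A1, the monocarboxylate carrier that can work in either direction, was lower in granulosa of cows A and B than before LH, and less so in cow C. Membrane granulosa read 9.36, 8.39 and 9.41 before LH and 7.61, 6.74 and 9.01 after it, and antral granulosa 8.55, 7.98 and 9.19 before and 6.97, 6.08 and 8.0 after it. The membrane groups overlapped through cow C, and the antral groups overlapped narrowly. The differences of -1.27 ± 0.62 and -1.56 ± 0.62 were not called (adjusted p = 0.175 and 0.089). Without cow C they were -1.88 and -2.05 (adjusted p = 0.0074 and 0.00407).

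BSG, the partner protein that SLC16A1 and SLC16A3 need at the surface, was not called for LH in any population (-0.47 ± 0.16 in membrane granulosa, adjusted p = 0.0508). Of 18 measured genes of glucose and lactate handling, 5 rose and 1 fell in membrane granulosa, 1 rose and 2 fell in antral granulosa, and 2 rose and 1 fell in theca. PFKFB3, which makes the activator of glycolysis fructose 2,6-bisphosphate, rose by 2.55 ± 0.42 in membrane granulosa and 2.53 ± 0.42 in theca (adjusted p = 0.000368 and 0.00236). LDHA, which makes lactate, rose by 1.10 ± 0.27 in theca (adjusted p = 0.0342) and was lower there than in membrane granulosa, by -1.72 ± 0.21 before and -1.22 ± 0.21 after LH. MPC1, a subunit of the mitochondrial pyruvate carrier that bears no SLC symbol, rose by 1.47 ± 0.25 and 1.26 ± 0.25 in membrane and antral granulosa (adjusted p = 0.000523 and 0.00175).

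The mitochondrial carrier family, the largest class with 27 genes, moved in both directions: 4 rose and 5 fell in membrane granulosa, 3 rose and 5 fell in antral granulosa, and 2 rose and 2 fell in theca. The shares of all genes called there were 26.1%, 28.7% and 5.19%. SLC25A12, the calcium-sensitive exchanger of aspartate and glutamate in the malate-aspartate shuttle, read 6.47, 6.55 and 6.66 in membrane granulosa before LH and 9.86, 9.76 and 9.89 after it. Antral granulosa went from 6.62, 6.45 and 6.65 to 9.93, 9.64 and 9.90, and theca from 7.03, 6.80 and 7.60 to 8.56, 8.56 and 9.49. All 3 populations separated completely between stages. The rises were 3.28 ± 0.23, 3.25 ± 0.23 and 1.73 ± 0.23 (limma adjusted p = 9.33e-08, 7.53e-08 and 0.000328). The rise in theca was smaller than in membrane granulosa (-1.55 ± 0.27, adjusted p = 0.00319), and theca passed from above membrane granulosa before LH (0.58 ± 0.19) to below it after LH (-0.97 ± 0.19). A second probe set, with a mean of 7.33, gave theca minus membrane granulosa of 0.49 before LH (limma adjusted p = 0.0908) and -0.91 after it (adjusted p = 0.00705). The call before LH thus rests on the brightest probe set.

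SLC25A17, a family member of the peroxisomal membrane that carries coenzyme A and related cofactors, also rose in all 3 populations. Membrane granulosa read 9.78, 9.73 and 9.58 before LH and 12.06, 12.13 and 11.52 after it, antral granulosa 9.18, 9.07 and 9.06 before and 11.78, 11.89 and 11.71 after it, and theca 9.63, 9.08 and 9.30 before and 10.48, 10.35 and 10.60 after it. No group overlapped, and the rises were 2.20 ± 0.16, 2.69 ± 0.16 and 1.14 ± 0.16 (adjusted p = 1.73e-07, 1.63e-08 and 0.000643). The difference between theca and membrane granulosa was -1.06 ± 0.22 (adjusted p = 0.00955). SLC25A29, which carries basic amino acids into mitochondria, rose in granulosa, from 5.72, 6.07 and 5.62 to 8.03, 7.78 and 7.18 in antral granulosa and from 5.56, 5.75 and 6.11 to 6.89, 7.06 and 6.09 in membrane granulosa. The antral groups were apart, whereas cow C overlapped in membrane granulosa. The rise was 1.86 ± 0.26 in antral granulosa (adjusted p = 6.27e-05), 0.88 ± 0.26 in membrane granulosa (adjusted p = 0.0234, and 0.0738 to 0.144 without cow A, B, D or F) and 0.06 ± 0.26 in theca. For no solute carrier, SLC25A29 included, was the antral LH effect called different from the membrane one.

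SLC25A20, which exchanges acylcarnitine for carnitine in the inner mitochondrial membrane, fell in granulosa. Membrane granulosa read 10.20, 9.67 and 9.66 before LH and 6.82, 7.33 and 7.72 after it, antral granulosa 10.04, 10.05 and 9.66 before and 6.62, 7.14 and 6.88 after it, and theca 10.17, 9.72 and 9.46 before and 8.95, 9.21 and 8.51 after it. The groups were apart in all 3 populations. The differences were -2.55 ± 0.25 and -3.04 ± 0.25 in membrane and antral granulosa (adjusted p = 3.2e-06 and 4.09e-07) and -0.89 ± 0.25 in theca, which was not called (adjusted p = 0.0669), and the theca difference was smaller than that of membrane granulosa (1.66 ± 0.29, adjusted p = 0.00339).

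Both mitoferrins, the iron importers of mitochondria, fell in granulosa. SLC25A28 read 10.94, 11.12 and 10.31 in membrane granulosa before LH and 7.73, 8.0 and 8.70 after it, and its differences were -2.65 ± 0.32 and -2.39 ± 0.32 in membrane and antral granulosa (adjusted p = 2.33e-05 and 5.11e-05). In theca it was at 9.50, 8.99 and 8.29 before LH and 7.99, 8.22 and 8.61 after it, so the groups overlapped and -0.65 ± 0.32 was not called (adjusted p = 0.365). The difference in LH effect was 2.00 ± 0.25 (adjusted p = 0.000467). SLC25A37 fell with differences of -1.17 ± 0.24 and -0.96 ± 0.24 in granulosa (adjusted p = 0.00241 and 0.0086) and was not called in theca (-0.67 ± 0.24, adjusted p = 0.164). SLC25A33, a carrier of pyrimidine nucleotides, and SLC25A26, the carrier of S-adenosylmethionine, had smaller falls of -0.73 ± 0.20 and -0.67 ± 0.14 in membrane granulosa (adjusted p = 0.0174 and 0.00304) and of -0.99 ± 0.20 and -0.67 ± 0.14 in antral granulosa.

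SLC25A1, the citrate exporter that supplies cytosolic acetyl units, fell in theca alone. It read 9.76, 9.66 and 9.72 in theca before LH and 8.53, 8.27 and 9.19 after it, and the groups did not overlap. The difference was -1.05 ± 0.21 (limma adjusted p = 0.00823, and 0.0588 to 0.076 without cow A, D or G) against -0.19 ± 0.21 in membrane granulosa, and the difference between them was called (-0.86 ± 0.21, adjusted p = 0.022). SLC25A34, an orphan member, went dim in theca after LH, a fall of at least 0.43 on the log2 scale (adjusted p = 0.00424).

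The ADP/ATP exchangers gave answers that depended on the probe set. The brightest probe set of SLC25A5, with a mean of 11.5 over the arrays, was not called for LH in any population (0.09, -0.37 and -0.01 in membrane granulosa, antral granulosa and theca). A second one for the same gene, with a mean of 9.96, went from between 8.55 and 8.74 to between 11.4 and 11.7 in membrane granulosa, a rise of 2.88 ± 0.27 (adjusted p = 1.57e-06), and rose by 3.49 ± 0.27 in antral granulosa (adjusted p = 1.90e-07). SLC25A6 had a further probe set, its faintest, that rose by 0.87 ± 0.13 and 0.86 ± 0.13 in the granulosa populations (adjusted p = 0.000148 and 0.000137) while its brightest was not called for LH. Both genes are near copies of each other and of SLC25A4, which rose by 0.74 ± 0.25 in membrane granulosa (adjusted p = 0.0484), so signal from 1 of them can be read by a probe set of another and the LH effect on this trio is uncertain. Some smaller calls given here also rest on the brightest probe set, since another above the dim limit on average was not called. Among the calls for LH they are those of SLC25A26, SLC25A33 and SLC35E3 in membrane granulosa, of SLC1A4 and SLC38A2 in antral granulosa and of SLC27A1 in theca. The fall of SLC35A5 in membrane granulosa was also called on a fainter probe set with a mean of 7.78 (-0.73, adjusted p = 0.00993). A probe set of SLC35A5 with a mean of 5.68 gave -0.07 there and was not called (adjusted p = 0.942).

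Fatty acid carriers held the largest rise of the family. SLC27A2 encodes a protein that takes up long-chain fatty acids and links very long chains to coenzyme A. Membrane granulosa read 4.40, 4.82 and 3.98 before LH and 9.42, 8.94 and 7.97 after it. Antral granulosa read 5.13, 6.20 and 3.53 before and 8.68, 8.58 and 8.81 after it, and theca read 3.18, 3.78 and 3.40 before and 6.17, 5.87 and 5.39 after it. The groups were apart in each population, and theca before LH was dim on all 3 arrays. The rises were 4.37 ± 0.50 and 3.73 ± 0.50 in membrane and antral granulosa (limma adjusted p = 1.22e-05 and 4.54e-05), and at least 1.19 in theca (adjusted p = 0.0136). The theca call was lost without cow A, B or D (adjusted p = 0.0944, 0.06 and 0.109). After LH theca lay -2.97 ± 0.36 from membrane granulosa (adjusted p = 0.000189), and the LH effects were called different (adjusted p = 0.0283, and 0.06 to 0.12 without cow A, B or D), with no size read because theca was dim before LH.

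SLC27A1, an insulin-responsive fatty acid transport protein of muscle and fat, went down, with -0.98 ± 0.25 in membrane granulosa (adjusted p = 0.0113, and 0.062 without cow G) and -0.98 ± 0.25 in theca (adjusted p = 0.0438, and 0.0547 to 0.233 without cow A, D, F or G). SLC22A5, the sodium-coupled carnitine importer, rose in granulosa from 7.30, 7.49 and 7.34 to 8.57, 9.72 and 8.15 in membrane granulosa and from 7.0, 7.44 and 6.73 to 8.43, 9.09 and 8.22 in antral granulosa. The groups were apart in both, with rises of 1.43 ± 0.32 and 1.53 ± 0.32 (adjusted p = 0.00405 and 0.0023). A second, fainter probe set of SLC22A5, with a mean of 5.12, gave 0.34 in membrane granulosa (adjusted p = 0.373) and 0.72 in antral granulosa (adjusted p = 0.0435), so the membrane call rests on the brighter one.

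Of 17 measured genes of fatty acid handling, 5 rose and 4 fell in membrane granulosa, 5 rose and 3 fell in antral granulosa, and none was called for LH in theca. Those that rose in both granulosa populations were CPT1B and CPT2, which form and use acylcarnitine, CD36, a fatty acid receptor, ACSL1 and ACADM. CPT1B rose by 2.51 ± 0.35 and 2.76 ± 0.35 (adjusted p = 7.03e-05 and 2.27e-05). ACADL, ACADVL and HADHB, enzymes of the oxidation of long chains, were lower in both, with ACADL at -0.99 ± 0.25 and -1.27 ± 0.25 (adjusted p = 0.00826 and 0.0013).

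Among the Golgi carriers SLC35G1 fell further than any other solute carrier. It belongs to a drug and metabolite transporter family, and its substrate is not settled. Membrane granulosa read 11.67, 12.02 and 12.15 before LH and 7.71, 8.24 and 6.41 after it, antral granulosa 11.54, 11.85 and 11.83 before and 7.39, 8.04 and 6.73 after it, and theca 10.05, 9.58 and 8.97 before and 5.87, 6.27 and 6.17 after it. Every population was completely separated between stages. The differences were -4.49 ± 0.40, -4.35 ± 0.40 and -3.43 ± 0.40 (limma adjusted p = 1.09e-06, 9.75e-07 and 0.000142). A second probe set was called lower in all 3 populations too, but was dim on all theca arrays after LH, so its size there is not read. Theca lay below membrane granulosa by -2.41 ± 0.32 before LH (adjusted p = 9.96e-05) and by -1.35 ± 0.32 after it (adjusted p = 0.0078, but 0.115 and 0.121 without cow A or B). On the second probe set theca was also called lower before LH (adjusted p = 3.81e-05) but not after it (adjusted p = 0.134). The difference in LH effect was not called on the brightest probe set (1.06 ± 0.45, adjusted p = 0.183) but was on the second (adjusted p = 0.0119).

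SLC35G2, a relative of equally open function, did the reverse. It was at 3.13 to 3.64 on all arrays before LH, and after LH it read 6.99, 6.83 and 6.44 in membrane granulosa, 6.91, 6.87 and 7.14 in antral granulosa and 4.38, 4.55 and 4.71 in theca. All arrays before LH were thus dim. Granulosa rose by at least 2.13 (membrane) and at least 2.35 (antral), with adjusted p of 4.5e-09 and 1.46e-09, the smallest of the family in each. In theca the change was called (adjusted p = 0.000803), but 1 of 3 arrays after LH was above the limit and its size is not read. After LH theca was lower than membrane granulosa (-2.21 ± 0.17, adjusted p = 2.46e-05).

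Most carriers of nucleotide sugars, the donors for glycosylation, were not called in granulosa, and those called were lower more often than higher. SLC35A1, which brings CMP-sialic acid into the Golgi, read 10.90, 10.74 and 11.13 in membrane granulosa before LH and 9.73, 9.71 and 9.72 after it, a difference of -1.20 ± 0.12 (adjusted p = 3.93e-06). In antral granulosa it was -0.69 ± 0.12 (adjusted p = 0.000593) and in theca -0.29 ± 0.12, not called, with a difference in LH effect of 0.90 ± 0.16 (adjusted p = 0.00334). SLC35A3, for UDP-N-acetylglucosamine, SLC35A5 and SLC35E3 fell in membrane granulosa too, by 0.76, 0.87 and 1.15 on the log2 scale (adjusted p = 0.0481, 0.001 and 0.00175). SLC35D2, which carries UDP-N-acetylglucosamine and GDP-mannose, rose instead, by 1.11 ± 0.21 and 1.41 ± 0.21 in membrane and antral granulosa (adjusted p = 0.00129 and 0.000147). Over the 17 genes of the class, SLC35G1 and SLC35G2 included, 2 rose and 5 fell in each granulosa population, and 1 rose and 2 fell in theca. Over all genes 12.9% were called lower in membrane granulosa and 16.1% in antral granulosa.

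Of 21 metal ion carriers 1 rose and 7 fell in membrane granulosa, where 13.1% of all genes were called higher and 12.9% lower. In antral granulosa 1 rose and 6 fell, beside 12.6% and 16.1% of all genes, and in theca 0 rose and 1 fell, beside 2.34% and 2.85%. No test of the class was made. The falls all belong to the 17 genes of the zinc families SLC30 and SLC39, whose median was -0.33, -0.41 and 0.06 in the 3 populations beside -0.03, -0.03 and -0.01 for all genes. SLC39A14, a surface importer of zinc, manganese and iron, read 11.19, 11.50 and 11.69 in membrane granulosa before LH and 8.06, 8.57 and 9.62 after it. Antral granulosa went from 10.76, 11.07 and 10.92 to 7.46, 7.64 and 8.53, and theca was at 10.68, 10.94 and 10.09 before and 10.63, 10.65 and 10.33 after it. Granulosa separated between stages and theca overlapped. The differences were -2.71 ± 0.34 and -3.03 ± 0.34 (limma adjusted p = 3.21e-05 and 8.19e-06) against -0.03 ± 0.34 in theca, and the difference in LH effect was 2.68 ± 0.42 (adjusted p = 0.00165).

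The other zinc carriers had smaller differences. SLC30A1, the zinc exporter of the cell surface, was at -1.09 ± 0.20 in membrane granulosa (adjusted p = 0.000946) and SLC30A5, which loads zinc into the secretory pathway, at -0.78 ± 0.13 there (adjusted p = 0.00042). SLC30A6, the partner of SLC30A5, was at -0.70 ± 0.23 and -0.97 ± 0.23 in membrane and antral granulosa (adjusted p = 0.0446 and 0.00649; 0.0508 in antral granulosa without cow A). SLC39A7 and SLC39A9, which release zinc from the endoplasmic reticulum and Golgi, were at -0.72 ± 0.20 and -0.68 ± 0.13 in membrane granulosa (adjusted p = 0.0167 and 0.00126). The genes that fell thus include importers and exporters. The fall in theca was that of SLC39A4 (-0.48 ± 0.13, adjusted p = 0.0485), which was not called without any 1 of the 6 cows (0.0821 to 0.197).

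The metal carrier that rose was SLC31A2, related to the copper importer SLC31A1. It read 6.74, 6.92 and 6.41 in membrane granulosa before LH and 9.23, 9.10 and 8.74 after it, and 7.58, 6.89 and 6.08 in antral granulosa before and 8.35, 8.77 and 9.03 after it. Both populations were apart, with rises of 2.33 ± 0.32 and 1.87 ± 0.32 (adjusted p = 6.89e-05 and 0.000443). In theca the difference of 1.01 ± 0.32 was not called (adjusted p = 0.104), and nor was its difference from membrane granulosa (-1.32 ± 0.43, adjusted p = 0.085). SLC39A8, an importer of zinc and manganese, varied between cows: theca read 10.32, 8.25 and 8.19 before LH and 9.99, 9.52 and 11.71 after it. It was not called for LH in any population, but theca lay -2.63 ± 0.31 from membrane granulosa before LH (adjusted p = 4.65e-05).

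Both equilibrative nucleoside transporters, which let adenosine and other nucleosides cross the surface, fell in granulosa. SLC29A1 read 10.17, 10.01 and 10.45 in membrane granulosa before LH and 7.53, 7.36 and 9.05 after it, and 9.88, 9.10 and 9.54 in antral granulosa before and 6.86, 6.31 and 7.95 after it. In theca it read 8.44, 8.29 and 8.17 before and 9.21, 8.56 and 9.29 after it. All 3 populations were apart, with theca higher after LH and granulosa lower. The granulosa differences were -2.23 ± 0.42 and -2.47 ± 0.42 (limma adjusted p = 0.00114 and 0.000422), and the theca difference of 0.72 ± 0.42 was not called (adjusted p = 0.467). The difference in LH effect was 2.95 ± 0.33 (adjusted p = 0.000246), and theca went from -1.91 ± 0.23 against membrane granulosa before LH to 1.04 ± 0.23 after it. SLC29A2 was at -1.22 ± 0.19 in membrane granulosa (adjusted p = 0.000198) and 0.07 ± 0.19 in theca, with a difference of 1.29 ± 0.27 (adjusted p = 0.0109).

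Of the 13 carriers of nucleosides, vitamins and choline, 2 rose and 4 fell in membrane granulosa and 3 rose and 3 fell in antral granulosa, and none was called in theca. Beside them stand 26.1%, 28.7% and 5.19% of all genes. SLC44A2, a choline carrier, read 7.12, 6.97 and 7.21 in membrane granulosa before LH and 8.69, 9.05 and 8.21 after it, and rose by 1.55 ± 0.21 and 1.91 ± 0.21 in membrane and antral granulosa (adjusted p = 6.86e-05 and 6.9e-06). Its groups were apart. SLC44A4, of the same family, was called lower in both granulosa populations but was dim on all membrane arrays, and in antral granulosa it fell by at least 0.16 (adjusted p = 0.000748). SLC46A1, the proton-coupled folate carrier, rose by 1.05 ± 0.21 and 1.20 ± 0.21 on its brightest probe set (adjusted p = 0.00193 and 0.000599), whereas a probe set of nearly the same mean gave -0.48 and -0.71 in the same groups (adjusted p = 0.158 and 0.0327), so its direction is not settled. SLC52A3, the riboflavin carrier, was dim before LH and rose by at least 0.32 in antral granulosa (adjusted p = 0.0285).

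Phosphate carriers of the SLC20 family and a few ion carriers also rose. SLC20A2 read 5.21, 5.67 and 5.86 in membrane granulosa before LH and 7.49, 6.95 and 7.61 after it, and the groups were apart. It rose by 1.77 ± 0.28 and 1.42 ± 0.28 in membrane and antral granulosa (limma adjusted p = 0.000241 and 0.00145), and SLC20A1 by 1.19 ± 0.23 in antral granulosa (adjusted p = 0.00117). SLC4A7, a sodium-bicarbonate importer that raises the pH of the cell, rose by 1.59 ± 0.22 in antral granulosa (adjusted p = 7.39e-05) and by 0.87 ± 0.22 in membrane granulosa (adjusted p = 0.0108, and 0.0597 and 0.0757 without cow B or F). SLC6A8, the creatine importer, went from 6.47, 6.45 and 6.73 to 7.88, 8.21 and 7.46 in membrane granulosa and rose by 1.30 ± 0.20 there and 1.21 ± 0.20 in antral granulosa (adjusted p = 0.000173 and 0.000273), and theca did not follow (0.30 ± 0.20; difference -1.0 ± 0.25, adjusted p = 0.0249).

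Of 10 carriers of organic ions, peptides and urea, 5 of them dim on all arrays, 1 rose and 3 fell in membrane granulosa and 1 rose and 2 fell in antral granulosa. Of all genes 26.1% and 28.7% were called in these populations. The gene that rose was SLC22A5, described above. SLC22A17, a receptor for the iron-binding protein lipocalin, was at -1.29 ± 0.22 and -0.78 ± 0.22 in membrane and antral granulosa (adjusted p = 0.0004 and 0.0149; 0.0796 and 0.0644 in antral granulosa without cow C or F). SLC22A23, an orphan member, was at -1.26 ± 0.19 and -0.77 ± 0.19 (adjusted p = 0.000149 and 0.00735; 0.0583 in antral granulosa without cow A). SLC4A3, an exchanger of chloride and bicarbonate, became dim in membrane granulosa, a fall of at least 1.00 (adjusted p = 0.00779). Among carriers that bear other symbols, 3 of 21 rose and 1 fell in each granulosa population. The fall was RHBG, an ammonia channel, whose mean went from 6.61 to a dim 3.17 in membrane granulosa, from 6.63 to 3.16 in antral granulosa and from 6.48 to 3.67 in theca (adjusted p = 2.49e-06, 1.59e-06 and 0.00017).

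The LH effect itself was compared between theca and membrane granulosa within the 2 sets of cows. It differed for 30 of the 179 genes (19 with the higher effect in theca and 11 with the lower), or 16.8%, where 9.13% of all probe sets and 11.6% of all genes were called (5.66% higher and 5.96% lower). In 15 of the 30 the gene fell in membrane granulosa and was not called in theca, as with SLC43A2, SLC29A1, SLC39A14, SLC25A28 and SLC35A1, and in 5 it rose in membrane granulosa and was not called in theca. In 4 both populations were called in the same direction (SLC25A12, SLC25A17, SLC27A2 and SLC35G2). The change was smaller in theca for SLC25A12 and SLC25A17, and the size of the theca change is not known for SLC27A2 and SLC35G2, which were dim there before LH. SLC1A3, SLC7A5 and SLC25A1 were called in theca only, SLC7A1, SLC35A2 and SLC39A8 in neither, and no gene was called in opposite directions in this pair. The 11 lower effects became 3 without cow A or without cow B, 7 without cow D or F and 5 without cow G, and the 19 higher effects 11 without cow A.

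**Figure D4:**
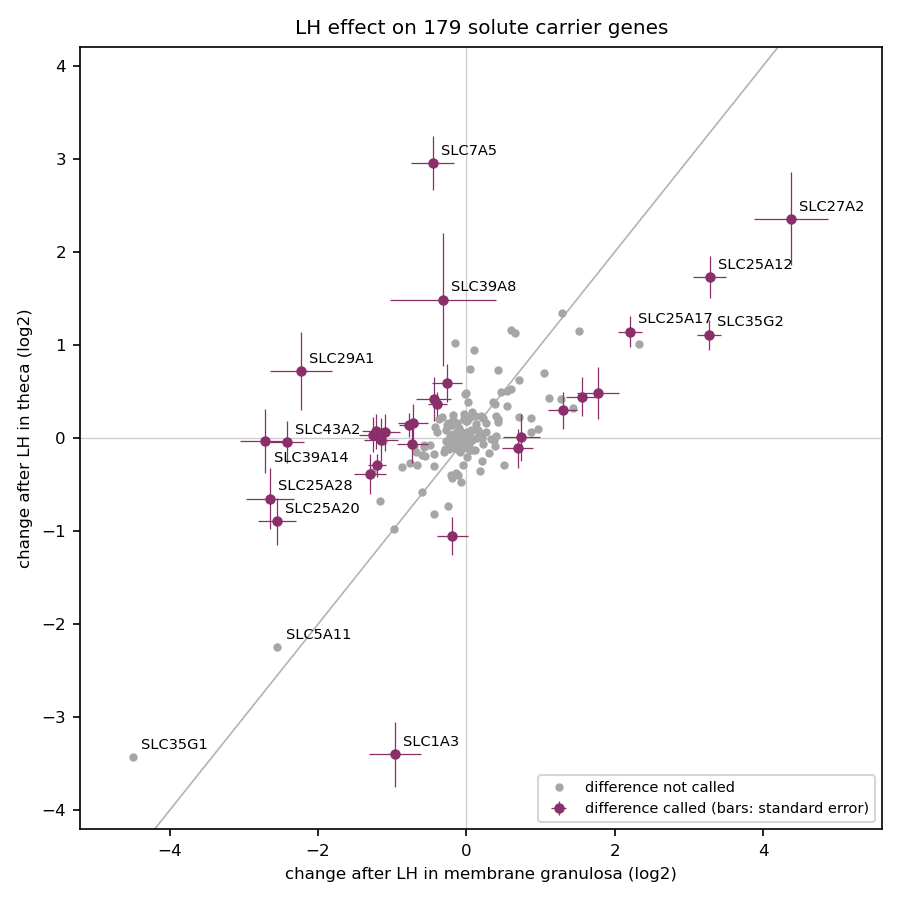
Each point is 1 of the 179 genes, with its log2 change after LH in membrane granulosa on the horizontal and in theca on the vertical axis; purple points with standard errors are the 30 genes whose change differed between the 2 populations, and the diagonal marks equal change. SLC7A5 (-0.45 and 2.95) and SLC1A3 (-0.96 and -3.40) lie along the theca axis, SLC39A14, SLC29A1 and SLC43A2 along the granulosa axis, and SLC35G1 and SLC5A11 near the diagonal. Points are fitted values, and those of SLC1A3, SLC27A2 and SLC35G2 involve a group dim on all arrays.

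Between antral and membrane granulosa no solute carrier had a called difference in LH effect (0.00% of all probe sets were called by limma). At an unadjusted p under 0.05 there were 16 of the 179 genes and 2236 of all probe sets, and the smallest adjusted p of the family was 0.366.

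Solute carriers were called different between theca and membrane granulosa less often than all genes were. Before LH 17 genes were higher and 41 lower in theca, 32.4% of the family beside 34.3% of probe sets and 40.4% of genes. The family was called higher less often than all genes were (9.5% against 21.1%) and lower slightly more often (22.9% against 19.3%), a difference in shares that was not tested. After LH 14 were higher and 27 lower, or 22.9% beside 25.8% and 31.5%. By direction this was 7.82% higher and 15.1% lower, beside 15.7% of all genes each way. The counts after LH rested on cows A and B: 8 higher and 11 lower were called without cow A and 8 and 10 without cow B, against 29 lower without cow C. Before LH the 17 higher became 10 without cow G. In 36 of the 41 genes called after LH the difference was smallest in cow C, with a median size of 0.47, while cow A had 1.12 and cow B 1.20. The like share over all genes is not given here. Cow C's membrane granulosa is also the array with the high fibroblast markers and STAR given above.

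The genes highest in theca before LH were SLC1A3 (3.04 ± 0.31), SLC66A3 (2.31 ± 0.19), SLC35D2 (1.13 ± 0.15), SLC1A4 (1.12 ± 0.20), SLC37A1 (1.01 ± 0.15) and SLC1A5 (0.91 ± 0.29). Of these 3 are SLC1 carriers of glutamate or neutral amino acids, and the serine synthesis genes PSAT1 and PHGDH were higher in theca as well (3.03 ± 0.31 and 1.46 ± 0.29, limma adjusted p = 1.76e-05 and 0.00194). Of the 18 measured genes of the amino acid enzyme list 5 were higher and 4 lower there, beside 21.1% and 19.3% of all genes. A fainter probe set of SLC1A4, with a mean of 4.81, gave 0.19 (limma adjusted p = 0.23). The SLC1A4 call in theca thus rests on the brighter probe set. The genes lowest in theca were SLC16A3, SLC39A8, SLC35G1, SLC43A2 (-1.94 ± 0.18), SLC29A1 and SLC25A28 (-1.86 ± 0.18). After LH SLC7A5, SLC39A14 (1.79 ± 0.29), SLC1A5, SLC25A20 (1.60 ± 0.20), SLC66A3 and SLC17A9 (1.33 ± 0.23), the vesicular carrier of nucleotides, were the highest in theca. SLC27A2, SLC16A3, SLC35G2, SLC22A5 (-1.47 ± 0.23), SLC25A17 (-1.42 ± 0.15) and SLC35G1 were the lowest.

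The order of the populations was kept for some genes and turned for a few. SLC1A5, SLC17A9, SLC35D2 and SLC66A3 were higher in theca at both stages, and 12 genes were lower at both, among them SLC16A3, SLC2A1, the iron carrier SLC11A2 (-0.96 ± 0.21 and -1.02 ± 0.21), the phosphate carrier SLC20A1 (-1.0 ± 0.16 and -0.97 ± 0.16) and the zinc importer SLC39A6 (-0.82 ± 0.11 and -0.84 ± 0.11). SLC7A5, SLC29A1 and SLC39A14 were lower in theca before LH and higher after it, and SLC25A12 went the other way on its brightest probe set. A further 38 genes were called before LH alone and 21 after LH alone. Zinc carriers contributed 1 higher and 8 lower of 17 before LH and 3 higher and 1 lower after it.

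**Figure D5:**
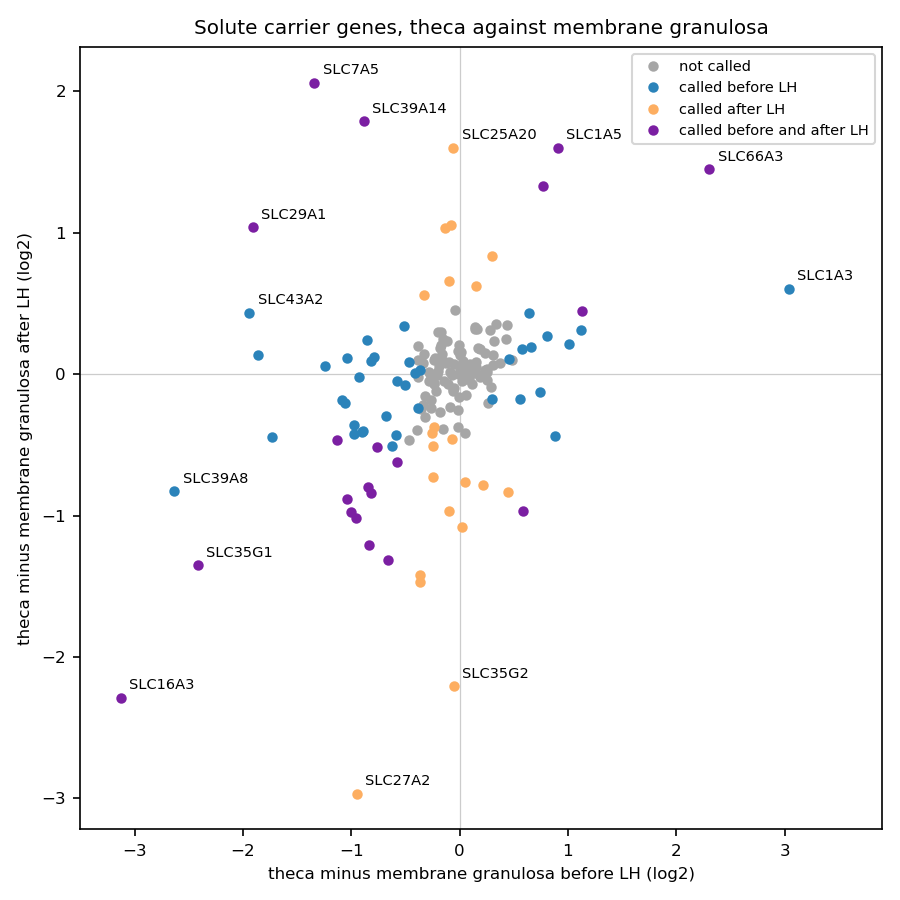
Each point is a solute carrier gene, with theca minus membrane granulosa before LH on the horizontal and after LH on the vertical axis (log2), coloured by the stage at which the difference was called. SLC16A3 and SLC35G1 sit low at both stages, SLC66A3 and SLC1A5 high at both, SLC1A3 is far right with a small difference after LH, and SLC7A5, SLC39A14 and SLC29A1 lie in the upper left, lower in theca before and higher after LH.

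Few solute carriers were called different between antral and membrane granulosa. Before LH 1 gene was higher (SLC16A3) and 3 were lower in antral granulosa, 2.23% of the family beside 1.77% of probe sets and 2.58% of genes (1.05% higher and 1.53% lower). The call of SLC16A3 rests on its brighter probe set, as given above. The lower ones were SLC35F5 (-0.87 ± 0.17), SLC4A7 (-0.70 ± 0.14) and SLC35A1 (-0.51 ± 0.11), with limma adjusted p of 0.0277, 0.0327 and 0.0382. After LH 3 were higher and 5 lower, or 4.47% beside 3.00% and 3.41% (1.16% higher and 2.25% lower). The higher ones were SLC25A29 (0.98 ± 0.18, adjusted p = 0.0235), the zinc carrier SLC30A2 (0.87 ± 0.21, adjusted p = 0.0459) and SLC3A1, a heavy chain of cystine transport that was dim in membrane granulosa (at least 0.27, adjusted p = 0.0319). The lower ones were SLC25A6, SLC31A1, SLC30A6, SLC39A1 and SLC35F6, at -1.09 to -0.56. None of these 8 calls after LH survived leaving out cow A, B or C, and those before LH were each lost without 1 or more of the cows. By limma, 40 genes of the family had an unadjusted p under 0.05 before LH and 45 after it. The family's median size of difference between antral and membrane granulosa was 0.18 before LH and 0.20 after it. For theca against membrane granulosa it was 0.26 and 0.20, so few calls here do not show that the 2 granulosa populations were alike.

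Cow C differed from cows A and B in other carriers too. In membrane granulosa after LH 21 of the 179 genes differed by more than 1 between cow C and the mean of cows A and B, against 6 in antral granulosa and 8 in theca. The median size of that difference in membrane granulosa was 0.23 for the family and 0.22 for all probe sets, so the family was much like the rest. The same count over all probe sets, or for cow A or B, is not given here. SLC17A5, which exports sialic acid from lysosomes, was at 10.81 and 10.48 in membrane granulosa of cows A and B and at 12.22 in cow C, and at 9.67, 9.42 and 12.04 in theca. Its differences of 1.29 ± 0.55 and 1.53 ± 0.55 in membrane and antral granulosa were not called (limma adjusted p = 0.119 and 0.0608), and without cow C they were 0.76 and 1.21 and were called (adjusted p = 0.0144 and 0.000615). Why cow C differed was not tested.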

How the data were processed

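RNA of 18 samples was read on bovine 3' expression arrays, 1 array per population and cow. The deposited values are log2 signals made by robust multi-array averaging (RMA) in Partek 6.5, per the submitters' processing notes, whose settings are not given in the sources used here. RMA as usually run sets all arrays to a like distribution, which would hide a shift of all genes: array medians were 5.74 to 5.86, and values ran from 2.29 to 14.9. Arrays of a group correlated at 0.97 to 0.99 and none were identical. With 3 arrays a group, that number sets the precision.

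Of 24128 entries 112 controls were left out and 24016 probe sets were kept. Linear models with moderated variances came from limma 3.58.1 under R 4.3.3, with Benjamini-Hochberg adjustment and a threshold of 0.05, and the code was tested on simulated data. The LH effect used the 6 group means (12 residual degrees of freedom), since before and after are different cows. Contrasts within cows kept the cow as a block (8 residual degrees of freedom). The pairing comes from the labels' cows: over 18 pairs of the same cow the deviations correlated at -0.02 to 0.69, with 17 over 0.1, and over 9 pairs that share only a replicate number at -0.17 to 0.23, with 2 over 0.1.

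Genes were named by the array's platform annotation, which can be old, and all 179 symbols matched RefSeq gene records. A gene dim on all arrays of one side has a bound only: "at least" sets the brighter mean against the limit. Named genes were, per LH contrast, the 12 largest called rises and falls with groups apart. Per contrast between populations they were the 6 largest called each way with all 3 cows alike. Per difference in LH effect they were the 6 largest called each way, with no such rule on cows. Up to 4 genes per class with the smallest adjusted p, and a fixed list, were added. Further called genes that complete a class or a count were named after their values were seen. The members, the lists of markers, partners and enzymes, and this rule were chosen with earlier results of these data known. SLC7A11 was not analysed here.

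Alternatives were quantile normalization, median centring, leaving out the dimmest probe sets, a trended robust eBayes, a minimum change of 1, the median change over a gene's probe sets with their smallest adjusted p, only the arrays compared, replicate number or cow as a block, and leaving out each cow.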

Additional observations from a re-analysis of the deposited data

Results flagged for a closer look

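For 12 solute carriers the LH effect differed between theca and membrane granulosa by limma's test of the difference itself, and they were among the genes named for it. The theca effect was higher for SLC7A5 (by 3.40 on the log2 scale), SLC29A1 (2.95), SLC39A14 (2.68), SLC43A2 (2.38), SLC25A28 (2.00) and SLC39A8 (1.81). It was lower for SLC1A3 (-2.43), SLC35G2 (-2.16), SLC27A2 (-2.02), SLC25A12 (-1.55), SLC20A2 (-1.29) and SLC44A2 (-1.11). The values of SLC1A3, SLC35G2 and SLC27A2 are fitted ones that involve a group dim on all arrays, and their sizes are not read.

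Leaving out 1 cow ended the call for 4 of them. For SLC39A8 the adjusted p was 0.0572, 0.0903 and 0.0791 without cow A, B or C. For SLC27A2 it was 0.12, 0.115 and 0.06 without cow A, B or D. For SLC20A2 it was 0.0509 to 0.12 without cow A, B, D or F, and for SLC44A2 0.0535 to 0.191 without cow A, B, D, F or G.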

How the results depend on the processing

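Of 133 called results for named genes, 85 held under every alternative and 105 under all but the minimum change and the loss of a cow. With the median change over a gene's probe sets and their smallest adjusted p, SLC25A6 between antral and membrane granulosa after LH turned to 0.10 and SLC25A5 in antral granulosa to 1.56.

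With a minimum change of 1, falls after LH numbered 15, 8 and 4 in membrane granulosa, antral granulosa and theca. Theca against membrane granulosa then had 5 higher and 15 lower before LH and 9 and 10 after it. Antral against membrane granulosa had 0 lower before LH, and 0 higher and 1 lower after it, and the difference in LH effect 11 higher and 7 lower. With only the arrays compared, falls in theca were 4, antral against membrane granulosa had 1 lower before and 9 after LH, and the lower differences in LH effect were 6. Counting a gene when any of its probe sets was called gave 5 lower in antral granulosa before LH. Quantile normalization gave 2 and the trended robust fit 8 lower after LH.

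Without the replicate block by cow, theca had 10 higher before LH, antral granulosa 0 higher and 0 lower before and 1 lower after LH, and the difference in LH effect 12 higher and 4 lower. With the replicate number as a replicate block, rises and falls after LH were 22 and 32 in membrane granulosa, 26 and 29 in antral granulosa and 7 and 8 in theca, but that number ties different cows and has no basis in the design.

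Leaving out a cow gave 4 to 9 rises and 4 to 7 falls in theca after LH. Theca against membrane granulosa gave 10 to 16 higher and 30 to 42 lower before LH, and 8 to 16 and 10 to 29 after it. Antral against membrane granulosa gave 0 to 1 higher and 0 to 3 lower before LH, and 0 to 3 and 0 to 5 after it. The difference in LH effect gave 11 to 18 higher and 3 to 11 lower. Causes of these changes were not tested. With 3 cows a group, and signals near background for 43 genes, a gene not called may still differ.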
